A study of Mus musculus with 16 samples.

Results

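Immunoglobulin variable (V) segments were examined in 16 RNA sequencing libraries of mouse cells labelled as neutrophils sorted by flow cytometry. The count tables listed 348 genes whose symbols begin with Ighv, Igkv or Iglv, among 49585 genes in all. Members were chosen by their raw counts: a segment was included if these summed to at least 50 over the 16 libraries, which left 183 segments: 93 heavy chain (Ighv), 87 kappa (Igkv) and 3 lambda (Iglv). A further 78 segments had 1 to 49 counts and 87 had 0. The 183 segments held 212426 of the 213302 counts on V segments. Of the segments just inside the limit, Igkv4-51 and Igkv1-132 had 53 counts each, and just outside it Ighv8-4 had 47 and Igkv4-62 had 46. Since the limit used the summed counts, no level of the segments as a set is given as a finding, and their shares and levels per library are descriptions unless a test is named.

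The cells came from the bones of C57BL/6 mice aged 8 to 12 weeks, and each of 4 groups held 4 libraries. P2KO mice carried the Vav:cre recombinase and the floxed PHD2 gene (PHD2f/f; PHD2 is an oxygen sensor encoded by Egln1). P2H2KO mice carried Vav:cre with PHD2 and HIF2 both floxed (HIF2α is encoded by Epas1). Their controls, P2WT and P2H2WT, are described only as wild type, so whether they carried the recombinase or floxed alleles is not stated. Vav:cre is active in blood-forming cells generally, and therefore in the B lineage as well as in neutrophils. The labels do not say that each library was a separate animal, so p-values measure only the spread between libraries, which may in part be technical. Libraries are named below by group and the number in their title. Each title ends in the suffix m or f, with m in 2 P2WT, 3 P2KO, 3 P2H2WT and 2 P2H2KO libraries. The P2 and P2H2 lines were deposited in separate tables, so line and table cannot be told apart.

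Each developing B cell joins 1 V segment to D and J segments at the heavy chain locus and 1 V segment to a J segment at a light chain locus. A B cell clone and the plasma cells derived from it carry the same heavy and light V segments, and plasma cells make large amounts of immunoglobulin RNA. Neutrophils do not rearrange these loci. Counts per segment hold no information on the joined junction, so several clones that use 1 segment and a single large clone cannot be told apart here, nor can fewer cells of a type and less RNA per cell.

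Library depth ranged from 23450746 to 28601284 counts, and the V segments took 0.0320% to 0.0863% of them. Levels are given as CPM, counts scaled to a common library size with TMM factors. The defining neutrophil transcripts were abundant in all 16 libraries, with S100a8 at 5245 to 14637 CPM, S100a9 at 7761 to 21366 CPM and Ly6g at 84.3 to 270 CPM. The labelled deletions were not visible in the gene-level counts: Egln1 was at 48.7 ± 2.21 CPM in P2WT and 49.5 ± 6.40 in P2KO, and at 52.2 ± 2.97 in P2H2WT and 53.2 ± 4.39 in P2H2KO (mean ± SD, n = 4 each). Epas1 was at 3.56 ± 1.02 CPM in P2H2WT and 5.65 ± 2.17 in P2H2KO (n = 4 each). Reads outside the deleted part of a gene still count, so these values do not check the labels.

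The members lay at the 3 immunoglobulin loci of the mouse (GENCODE M21 annotation, GRCm38). All 93 Ighv members were on the minus strand of chromosome 12 between 113578504 and 116000461. The 87 Igkv members lay on chromosome 6 between 67609713 and 70704177, 32 on the plus and 55 on the minus strand. The 3 Iglv members lay on chromosome 16 between 19085017 and 19260859. Of 216 segments annotated as functional V genes, 177 (81.9%) reached 50 counts, against 6 of 130 pseudogenes (4.62%). No exon of a member overlapped an exon of another annotated gene. Segments are close copies of each other: 100 of the 183 had another V segment at least 95% identical over at least 250 aligned bases, 12 had one at 98% or more, and 1 (Ighv1-72, 99.2% identical to Ighv1-62-3) had one at 99% or more. How reads shared between such copies were counted is not stated, so the split between close copies is uncertain.

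The ends of 6 segments that carry the patterns described below are printed here, because it is this end that is joined to D or J. Each line holds the last 90 bases of the annotated transcript, 5′ to 3′. Capitals mark a run of 3 codons near the end of the third framework region, tyrosine, then tyrosine or phenylalanine, then the conserved cysteine. The run (TAT or TAC, then TAT, TAC, TTT or TTC, then TGT or TGC) was searched on the coding strand only and was found in 180 of the 183 members. Ighv11-2 (chr12:114048241-114048812, minus strand) and Igkv14-126 (chr6:67896172-67896642, plus strand) varied together between libraries. Ighv9-4 (chr12:114299961-114300389, minus), Ighv2-9 (chr12:113879096-113879541, minus), Igkv4-91 (chr6:68768555-68769103, minus) and Igkv3-1 (chr6:70703578-70704177, plus) stood far above their usual share in 1 or 2 libraries.
Ighv11-2: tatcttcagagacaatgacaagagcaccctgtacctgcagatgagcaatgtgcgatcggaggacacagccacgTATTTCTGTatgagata
Igkv14-126: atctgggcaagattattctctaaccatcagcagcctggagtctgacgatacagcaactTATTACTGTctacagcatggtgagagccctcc
Ighv9-4: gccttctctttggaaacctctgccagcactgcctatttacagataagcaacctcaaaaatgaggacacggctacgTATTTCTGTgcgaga
Ighv2-9: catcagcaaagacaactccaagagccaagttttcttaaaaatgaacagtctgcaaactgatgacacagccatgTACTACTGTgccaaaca
Igkv4-91: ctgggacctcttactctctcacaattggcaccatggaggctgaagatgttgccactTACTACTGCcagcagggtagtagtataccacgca
Igkv3-1: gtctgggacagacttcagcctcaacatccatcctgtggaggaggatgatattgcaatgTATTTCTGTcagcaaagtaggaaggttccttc
After the cysteine codon, 6 to 8 bases follow in the 3 heavy chain segments and 23 to 25 in the kappa segments, which encode the start of the third hypervariable loop.

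Summed over the members, V segments were at 481, 414, 417 and 420 CPM in P2WT libraries 3, 4, 7 and 10, and at 314, 614, 387 and 465 CPM in P2KO libraries 1, 5, 6 and 9. In the P2H2 line they were at 691, 867, 364 and 587 CPM in P2H2WT libraries 13, 14, 16 and 18, and at 672, 746, 423 and 368 CPM in P2H2KO libraries 11, 12, 15 and 17. The 4 groups overlapped, and the spread within P2H2WT (627 ± 210 CPM, SD, n = 4) was larger than the difference between any pair of the 4 group means. Light chain segments exceeded heavy chain segments in every library, by a ratio of 1.27 to 1.67. The 4 libraries with the most V segment RNA (P2H2WT 14 and 13, P2H2KO 12 and 11) were set beside the 4 highest libraries of each list gene. All 4 were shared for Igkc, the kappa constant region, Igha, the constant region of IgA, and Jchain, which joins the subunits of secreted IgM and IgA; these 3 genes had the most shared libraries of all list genes. Over the lists the median number shared was 2 for the 12 immunoglobulin constant genes (range 1 to 4) and 1.5 for the 12 plasma cell genes (0 to 4). It was 2 for the 12 mature B cell genes (1 to 3), the 12 B progenitor genes (1 to 3) and the 8 T cell genes (0 to 3). For 8 genes of the unfolded protein response it was 0.5 (0 to 1). The number shared was 0 for all 12 neutrophil genes, and also for Xbp1 and Txndc5 of the plasma cell list and Cd4 of the T cell list. The same held for Pdia4, Dnajb9, Herpud1 and Edem1 of the unfolded protein response list. The part of B-lineage content in the V segment level was not tested.

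**Figure D1:**
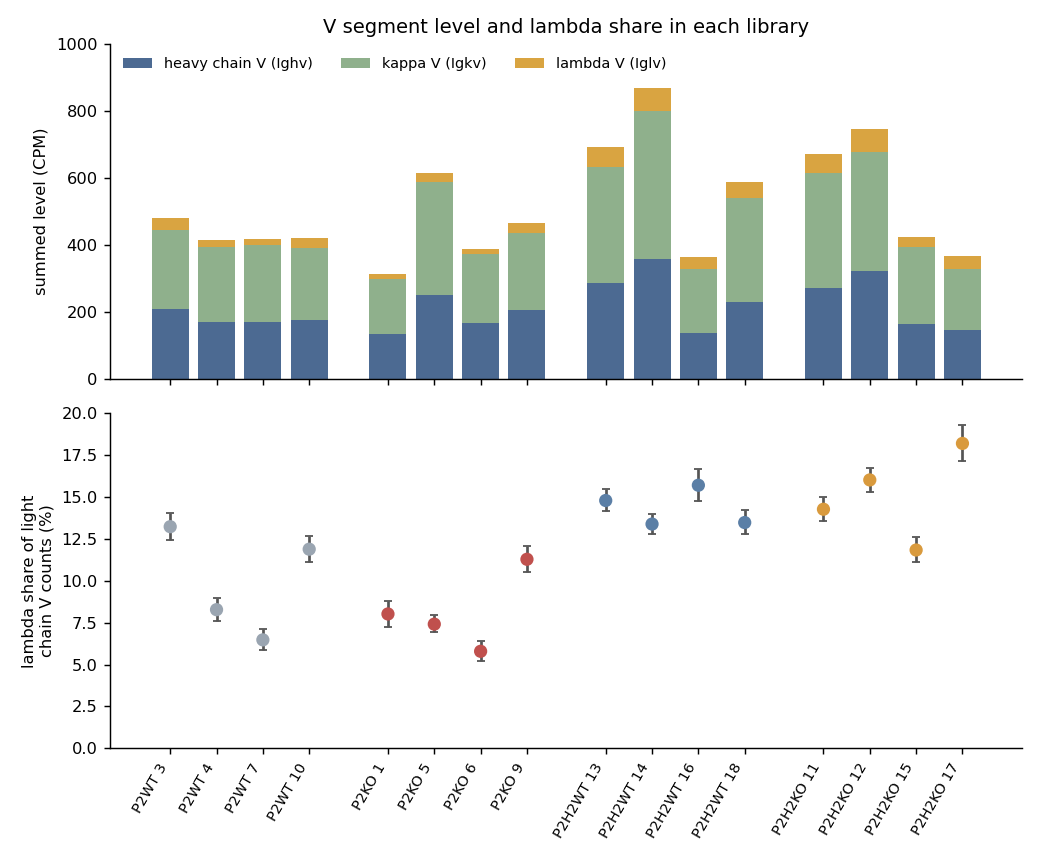
Upper panel: summed CPM of the heavy chain (Ighv), kappa (Igkv) and lambda (Iglv) V segments, stacked, in each of the 16 libraries. Lower panel: lambda share of light chain V counts (%) with exact 95% binomial intervals, coloured by group; the P2H2 libraries sit between 11.8% and 18.2% and the P2 libraries between 5.79% and 13.2%.

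In no library did a single heavy chain segment hold more than 10.8% of Ighv counts. The most abundant Ighv segment held a median of 7.63% of a library's Ighv counts. The share was highest in P2WT 7, where Ighv7-1 held 10.8% (exact Clopper-Pearson 95% interval 9.85 to 11.7%), and lowest in P2H2KO 15, where Ighv5-17 held 5.30% (4.67 to 5.99%). These intervals cover counting error only. Which segment led differed between libraries: 11 different Ighv segments came first in at least 1 of the 16, and Ighv1-9 did so in 3 of them (P2H2WT 18 at 7.67%, P2H2KO 12 at 8.67% and P2H2KO 17 at 8.46%). Ighv3-6 led in P2WT 3 (6.94%) and P2WT 4 (9.88%), Ighv1-22 in P2KO 1 (8.47%) and P2KO 6 (7.07%), and Ighv5-17 in P2H2WT 14 (6.67%) as well as P2H2KO 15. The other libraries were led by Ighv1-81 (P2WT 10, 9.48%), Ighv2-9 (P2KO 5, 7.60%), Ighv9-3 (P2KO 9, 5.61%), Ighv8-12 (P2H2WT 13, 5.81%), Ighv1-64 (P2H2WT 16, 8.57%) and Ighv6-3 (P2H2KO 11, 6.01%). The 5 leading Ighv segments together held 22.9 to 33.6% of a library's Ighv counts, and 26 different segments were among the 5 in at least 1 library.

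Evenness was summarised as the effective number of segments (the inverse Simpson index), the number of equally used segments that would give the same chance of drawing 1 segment in 2 draws. For Ighv it ran from 26.1 in P2WT 7 to 42.9 in P2KO 9, with a median of 35.0. By group the mean was 31.7 ± 4.62 in P2WT, 34.8 ± 5.93 in P2KO, 36.6 ± 2.86 in P2H2WT and 35.3 ± 2.33 in P2H2KO (SD, n = 4 each). The groups overlapped in both lines. Over all libraries the most used heavy chain segments were Ighv1-9 with 3822 counts, Ighv3-6 with 3678, Ighv7-1 with 3332, Ighv1-81 with 3267 and Ighv1-64 with 3144. Each of these 5 varied widely between libraries, Ighv1-81 for example from 0.458% to 9.63% of Ighv counts. Ighv7-1 is known for encoding antibodies to phosphorylcholine. Summed by family, the large Ighv1 family (48 members) held 44.6 to 57.7% of Ighv counts in every library.

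Kappa segments were less even by the median effective number, 31.0 against 35.0 for Ighv, and fewer different segments led. The most abundant Igkv segment held a median of 8.58% of Igkv counts, and 6 different segments led. Igkv14-126 led in 6 libraries, at 14.3% in P2H2KO 17 (interval 13.3 to 15.5%), 13.8% in P2KO 1, 9.51% in P2H2KO 11, 8.76% in P2H2WT 16, 7.85% in P2WT 4 and 7.81% in P2KO 9. Igkv15-103 led in 4, at 13.4% in P2WT 3, 12.3% in P2WT 7, 9.15% in P2H2KO 15 and 8.08% in P2H2WT 18. The remaining leaders were Igkv4-91 (P2KO 5, 10.5%, and P2KO 6, 8.40%), Igkv1-110 (P2H2WT 14, 6.70%, and P2H2KO 12, 5.66%), Igkv10-94 (P2H2WT 13, 6.78%) and Igkv4-57 (P2WT 10, 6.12%). The effective number of Igkv segments ran from 22.0 in P2H2KO 17 and P2KO 1 to 39.99 in P2H2KO 12, with a median of 31.0. The 4 P2H2KO libraries alone (21.96 to 39.99) spanned the values of all other groups. Over all libraries Igkv14-126 had 7000 counts, Igkv15-103 5941, Igkv1-110 and Igkv10-96 4846 each, and Igkv1-117 4526.

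**Figure D2:**
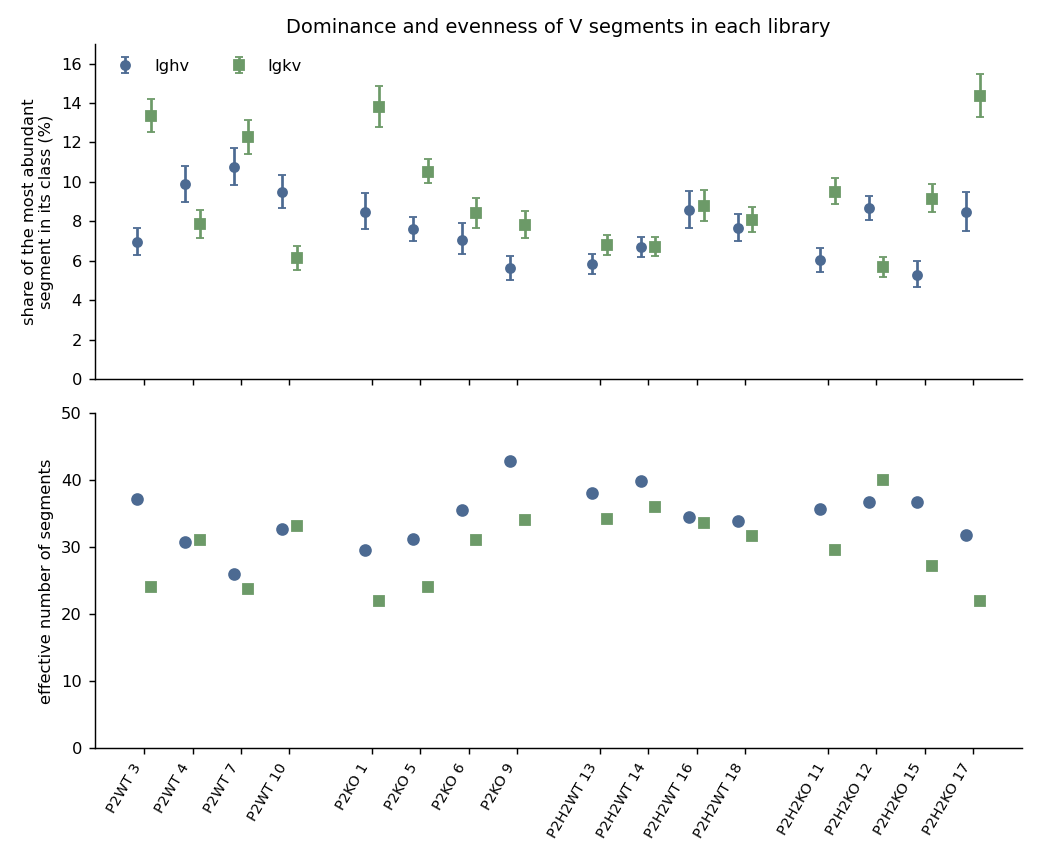
Upper panel: share of the most abundant Ighv (circles) and Igkv (squares) segment in its class (%) in each library, with exact 95% binomial intervals. Lower panel: effective number of segments in the same libraries; Ighv values lie between 26.1 and 42.9 and Igkv values between 22.0 and 39.99, and the 4 groups overlap in both classes.

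Some segments stood far above their usual share in single libraries. A segment was called expanded in a library if it held at least 5% of its class there and at least 5 times its median share over the other 15 libraries. By this rule 10 segments were expanded, 14 times in all, in 7 of the 16 libraries: 5 times for Ighv in 4 libraries and 9 times for Igkv in 7. Of the 14, 9 were in 3 P2KO libraries (1, 5 and 6), and the rest were 1 in P2WT, 3 in P2H2WT and 1 in P2H2KO. These counts per group were not tested, since libraries within a group differed as much as groups did: P2KO 9 had 0. The titles of P2KO 1, 5 and 6 end in m and that of P2KO 9 in f. Of the other libraries with an expansion, P2H2WT 13 and 18 have the suffix m, and P2WT 7 and P2H2KO 17 the suffix f. A relation of expansions to the suffix was not tested.

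Of the expanded heavy chain segments, Ighv9-4 in P2KO 5 stood highest above its median share. There it had 391 counts, 5.37% of Ighv and 33.0 times its median share, while the other 15 libraries had 1 to 77 counts. In the same library Ighv2-9 held 7.60% (553 counts, 7.63 times its median) and the kappa segment Igkv4-91 held 10.5% (1023 counts, 7.27 times). P2KO 6 shared 2 of these, with Ighv2-9 at 5.38% and Igkv4-91 at 8.40%, but Ighv9-4 was at 0.976% there. P2KO 6 in turn shared Igkv3-1 with P2KO 1: it held 6.77% of Igkv in P2KO 1 (302 counts, 56.0 times its median) and 5.43% in P2KO 6 (286 counts, 44.9 times). Outside these libraries Igkv3-1 had 152 counts in P2WT 10, 90 in P2WT 3 and at most 49 in the others. Ighv1-22 followed the same 2 libraries, at 8.47% in P2KO 1 and 7.07% in P2KO 6, of which only the first met the rule.

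The other 4 expanded kappa segments and the remaining heavy chain segment each stood in 1 or 2 libraries. Ighv10-1 (5.59%, 449 counts) and Igkv10-94 (6.78%, 651 counts, 9.28 times its median) were both in P2H2WT 13. Igkv6-32 was expanded in P2H2WT 18 (5.58%, 428 counts), and Igkv9-120 in P2WT 7 (5.25%) and P2KO 6 (5.41%). Igkv4-57-1 held 7.82% of Igkv in P2H2KO 17 (314 counts, 21.7 times its median) and 4.49% in P2H2KO 11 (358 counts), just under the limit of the rule. The pattern depended on the rule: with 10 times the median in place of 5, only 1 library kept an expanded Ighv segment and 3 an expanded Igkv segment.

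**Figure D3:**
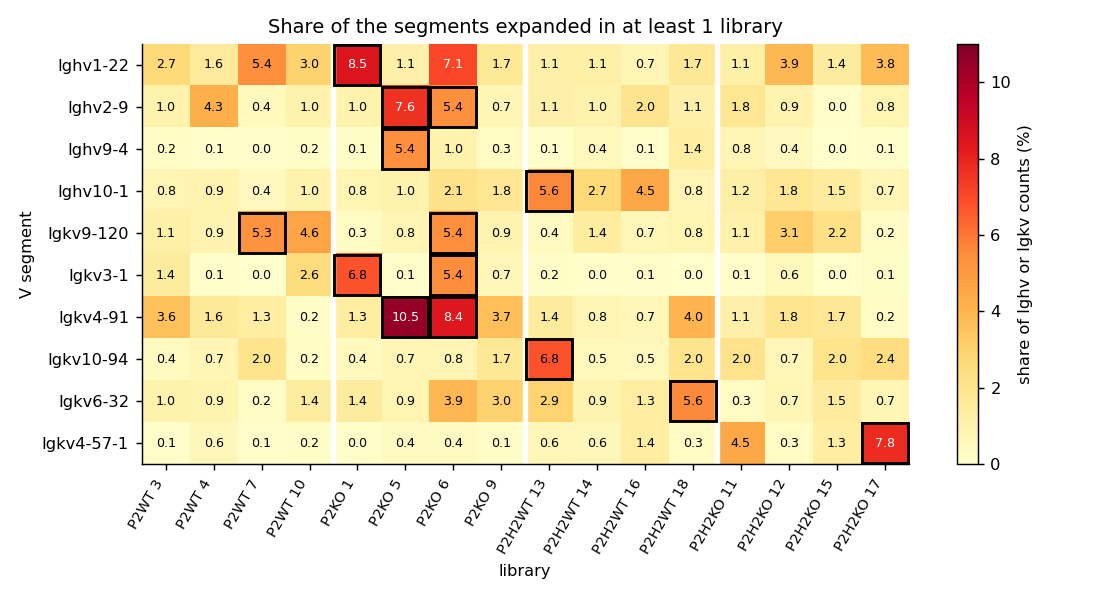
Share of Ighv or Igkv counts (%) held by each of the 10 segments expanded in at least 1 library (vertical axis), in all 16 libraries (horizontal axis); black boxes mark the 14 expansions. Of the boxes, 9 lie in P2KO 1, 5 and 6, and Igkv4-91 in P2KO 5 has the highest share at 10.5%.

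The unevenness was wider than these 10 segments. For each gene with at least 50 counts, the share of its summed CPM that came from its highest library was computed. This share was at least 20% for 96 of the 183 V segments (52.5%), against 2.18% of all 15953 genes with at least 50 counts. The V segments and all genes were not matched by count, and counting error raises this share for genes with few counts. Without their highest library 7 of the 183 members would have had fewer than 50 counts, 6 of them among the 96, so for these the limit itself favoured a high share; the same limit was used for all genes. The share in the highest library was at least 50% for 5 segments, against 0.0439% of all genes. Those 5, named after their values were seen, were Ighv2-4 (137 of 192 counts in P2H2KO 11), Ighv1-31 (186 of 292 in P2H2WT 14), Ighv1-49 (83 of 141 in P2H2WT 16), Igkv4-63 (492 of 907 in P2H2WT 14) and Ighv9-4 in P2KO 5 (53.0%). All but Igkv4-63 are heavy chain segments. The median share was 20.6% for the V segments and 8.15% for all genes. In the fit of all 16 libraries the biological coefficient of variation between libraries of a group had a median of 77.2% over the 158 V segments tested, 67.6% for Ighv, 83.2% for Igkv and 42.7% for the 3 Iglv, against 11.2% over all 14080 genes tested. The most even members, also named after their values were seen, were Igkv12-41, with 9.45% of its CPM in its highest library, and Igkv10-96, with 10.01%. The pseudogene Ighv1-41, which cannot encode a chain, was similar at 10.7% and had the lowest coefficient of variation of the members, 23.5%, with 31 to 77 counts per library.

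**Figure D4:**
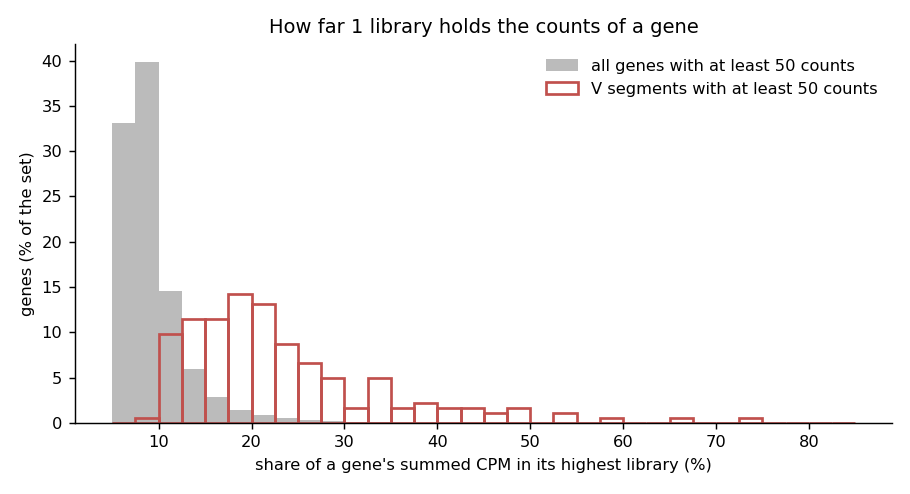
Histogram of the share of a gene's summed CPM that lies in its highest library (horizontal axis, %), as percent of the set (vertical axis), for all genes with at least 50 counts (grey) and for the V segments (red outline). The medians are 8.15% and 20.6%.

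Ighv11-2 and Igkv14-126 are known as the heavy and kappa segments of a frequent antibody of B-1a cells, a self-renewing B cell class, which binds phosphatidylcholine. The pair was examined after its values had been seen. As a share of Ighv counts, Ighv11-2 was at 3.48%, 4.73%, 3.28% and 2.81% in P2WT libraries 3, 4, 7 and 10, and at 6.48%, 3.82%, 1.24% and 3.86% in P2KO libraries 1, 5, 6 and 9. It was at 1.06%, 1.33%, 4.23% and 0.793% in P2H2WT libraries 13, 14, 16 and 18, and at 4.49%, 2.20%, 3.36% and 6.45% in P2H2KO libraries 11, 12, 15 and 17. Igkv14-126, as a share of Igkv counts, was at 7.95%, 7.85%, 7.82% and 5.94% in P2WT, 13.8%, 7.49%, 2.77% and 7.81% in P2KO, 2.48%, 1.80%, 8.76% and 2.64% in P2H2WT, and 9.51%, 3.58%, 9.11% and 14.3% in P2H2KO, in the same order. Both segments were highest in P2KO 1 and P2H2KO 17 and lowest in P2KO 6 and P2H2WT 13, 14 and 18.

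The shares of the pair varied together. Over the 16 libraries Pearson's r was 0.97 (permutation p = 2e-05, the smallest that the permutations can give) and Spearman's rho was 0.88 (permutation p = 6e-05), and r was 0.94 without the 2 libraries farthest from the median, P2KO 1 and P2H2KO 17. Within the 8 libraries of the P2 line r was 0.96 (exact permutation p = 0.00347) and fell to 0.63 without P2KO 1 and P2KO 6, so there the relation rests in part on those 2. Within the P2H2 line r was 0.98 (exact permutation p = 0.00104) and 0.96 without P2H2KO 17 and P2H2WT 18. In all, 6 such p-values were computed, and the largest after Benjamini-Hochberg adjustment was 0.0458, for rho in the P2 line (0.74, exact permutation). The pair was chosen after its values were seen, and the adjustment does not cover that choice. These p-values therefore describe the pair and do not test it. The place of the pair among all pairs is the fuller description: it ranked second by r of 8091 heavy-kappa pairs. First was Ighv1-49 with Igkv4-51 (r = 0.97), which have 141 and 53 counts and rest on P2H2WT 16; without that library Igkv4-51 had 34 counts, under the limit of 50. Among the 1147 pairs in which both segments had at least 1000 counts, Ighv11-2 with Igkv14-126 ranked first. That limit leaves out Ighv1-49 with Igkv4-51, the only pair ranked above it, so this rank adds no separate evidence. The next kappa segment for Ighv11-2 was Igkv10-95 (r = 0.58), and the next heavy chain segment for Igkv14-126 was Ighv1-41 (r = 0.56). Ighv11-2 is 98.9% identical over 353 bases to Ighv11-1, which had 24 counts in all, so reads of the 2 cannot be fully separated.

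**Figure D5:**
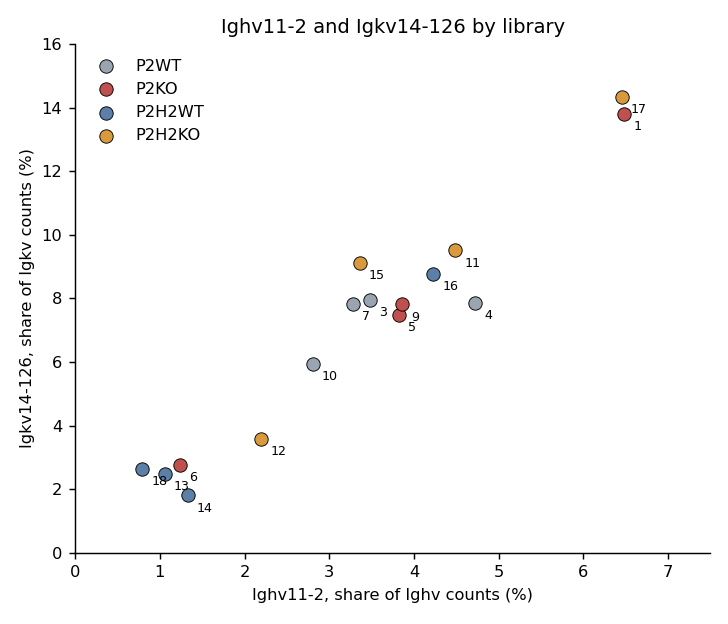
Share of Igkv counts held by Igkv14-126 (vertical axis, %) against the share of Ighv counts held by Ighv11-2 (horizontal axis, %), 1 point per library, numbered as in the titles and coloured by group. P2KO 1 and P2H2KO 17 are at the upper right, above 6% and 13%, and P2H2WT 13, 14 and 18 and P2KO 6 at the lower left.

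A second pair known from the same class of B-1a antibodies, Ighv12-3 with Igkv4-91, was also read after its values had been seen. Ighv12-3 held 0.0412% of Ighv counts in P2KO 5, where Igkv4-91 held 10.5% of Igkv counts, and 0.405% in P2KO 6, where Igkv4-91 held 8.40%. The median share of Ighv12-3 over the 16 libraries was 0.0980%, so it was below its median in the first of these libraries and above it in the other. Ighv12-3 had only 202 counts over all 16 libraries, so its low shares rest on few counts and lie near the floor. Its highest share, 0.879%, was in P2H2WT 16, where Igkv4-91 was at 0.665%.

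Lambda light chains of the mouse come from few V segments, and all 3 listed here were members. Iglv1 led in all 16 libraries with 73.0 to 93.7% of Iglv counts, and had 12804 counts in all against 1581 for Iglv2 and 778 for Iglv3. Iglv1 (chr16:19085017-19085500, minus strand) and Iglv2 (chr16:19260401-19260859, minus strand) are close copies, shown here over their last 240 bases because the reads of 1 can be counted for the other. Capitals mark the 6 positions at which they differ, which leaves them 97.5% identical over this stretch.
Iglv1: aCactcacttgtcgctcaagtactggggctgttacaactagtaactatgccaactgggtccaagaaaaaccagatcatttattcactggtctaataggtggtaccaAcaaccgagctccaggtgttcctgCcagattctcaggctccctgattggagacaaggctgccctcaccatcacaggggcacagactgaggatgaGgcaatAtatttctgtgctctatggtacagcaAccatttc
Iglv2: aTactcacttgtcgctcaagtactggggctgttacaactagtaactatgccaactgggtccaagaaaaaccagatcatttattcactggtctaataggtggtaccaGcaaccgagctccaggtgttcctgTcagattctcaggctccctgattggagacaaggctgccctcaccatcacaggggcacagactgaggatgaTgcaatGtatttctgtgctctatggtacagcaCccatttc
The lambda share of light chain V counts was 13.2%, 8.28%, 6.47% and 11.9% in P2WT libraries 3, 4, 7 and 10, and 8.02%, 7.41%, 5.79% and 11.3% in P2KO libraries 1, 5, 6 and 9. It was 14.8%, 13.4%, 15.7% and 13.5% in P2H2WT libraries 13, 14, 16 and 18, and 14.3%, 16.02%, 11.8% and 18.2% in P2H2KO libraries 11, 12, 15 and 17. Within each line the genotypes overlapped. Between lines only P2WT 3 and P2WT 10 reached the lowest P2H2 library, P2H2KO 15. In the constant regions, counted from other reads, the lines overlapped more. The 3 lambda constant genes Iglc1, Iglc2 and Iglc3 made up 6.79 to 13.4% of light chain constant counts in the P2 line (median 8.56%). In the P2H2 line they made up 10.6 to 16.01% (median 11.6%). P2WT 3 (13.4%), P2WT 10 (11.8%) and P2KO 9 (11.04%) lay above P2H2KO 15 (10.6%), and P2WT 3 also above P2H2KO 12 (13.3%). Iglv1 itself was at 20.9 ± 8.49 CPM in P2WT and 43.5 ± 14.4 in P2H2WT (SD, n = 4 each), a log2 fold change of -1.06 (SE 0.30) that was not called by edgeR's quasi-likelihood fit over all genes (Benjamini-Hochberg adjusted p = 0.180) but did pass with DESeq2 (adjusted p = 0.0191).

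The heavy chain constant regions, which set the antibody class, were also uneven between single libraries. Ighg2b, an IgG subclass, was at 575 CPM in P2KO 5 (16656 counts), the library with the expanded Ighv9-4, Ighv2-9 and Igkv4-91. The next highest library was P2H2KO 12 at 265 CPM and the lowest P2H2KO 17 at 40.9. P2KO 5 was also the highest P2 library for the subclasses Ighg2c (107 CPM) and Ighg3 (17.7 CPM). For Ighg1 it was at 30.1 CPM, under the P2 line median of 36.0. A link between these constant regions and the expanded segments was not tested. As a share of IgG counts Ighg2b stood less apart, at 78.8% in P2KO 5 against 73.1% in P2WT 10 and 72.5% in P2KO 6, and 30.4% in P2H2KO 17. Ighg2c had 0 counts in P2H2KO 17, which allows up to 3 counts or 0.135 CPM for counting error, and 8.20 CPM in P2H2WT 16, while the other 14 libraries had 31.5 to 163 CPM. Ighg3 had 3 counts in P2WT 3 and 5 in P2H2KO 15, against up to 22.8 CPM elsewhere. Ighm, the IgM constant region, was at 643 to 1319 CPM and Igha at 130 to 862 CPM.

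Ighg1 separated the genotypes of the P2H2 line without passing the test. It was at 41.6, 72.7, 27.2 and 23.8 CPM in P2H2WT libraries 13, 14, 16 and 18 and at 116, 111, 101 and 88.8 CPM in P2H2KO libraries 11, 12, 15 and 17, with no overlap. The log2 fold change was 1.33 (SE 0.31, edgeR quasi-likelihood test, adjusted p = 0.714). In that comparison 0.901% of all genes tested were higher in P2H2KO without overlap. In the P2 line Ighg1 overlapped between genotypes (log2 fold change 0.53).

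Genes of the B lineage and of other cells were read beside the segments from lists. Summed levels ranged from 1522 to 3723 CPM for 12 immunoglobulin constant genes, 524 to 855 CPM for 12 plasma cell genes, 714 to 1411 CPM for 12 mature B cell genes, 298 to 541 CPM for 12 B progenitor genes, 31.7 to 51.6 CPM for 8 T cell genes and 32126 to 82007 CPM for 12 neutrophil genes. No gene of these lists passed the edgeR test in any comparison. In the P2 line 8 of 11 tested constant genes, 8 of 11 plasma cell genes and 11 of 12 mature B cell genes had a higher fitted level in P2KO (median log2 fold changes 0.11, 0.03 and 0.13, against 0.02 for all genes), while 4 of 12 B progenitor genes did (median -0.03). In the P2H2 line 2 of 11, 2 of 11 and 1 of 12 had a higher fitted level in P2H2KO (medians -0.26, -0.12 and -0.28), as had 1 of 11 B progenitor genes (median -0.32), while 12 of 12 neutrophil genes did (median 0.20, against 0.00 for all genes). Between the wild types 0 of 11 constant genes had a higher fitted level in P2WT (median -0.70, against -0.01 for all genes), as had 1 of 11 plasma cell genes (median -0.09) and 2 of 12 mature B cell genes (median -0.14), while 9 of 12 B progenitor genes did (median 0.12). Of the neutrophil genes, 4 of 12 had a higher fitted level in P2KO than in P2WT (median -0.01). Between the wild types 2 of 12 neutrophil genes had a higher fitted level in P2WT (median -0.17), the same direction as the constant genes. The part of cell content in the segment values below was not tested.

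No V segment was called between P2KO and P2WT: 0 of the 135 members that passed the filter on low counts reached an adjusted p under 0.05 in edgeR's quasi-likelihood fit over all genes, and the other 48 were not tested. Of all 13734 genes tested, 0.0437% were called. DESeq2 called 1 segment. An unadjusted p under 0.05 was reached by 19 segments (14.1%), against 3.49% of all genes. Fitted levels were higher in P2KO for 70 segments and lower for 65, with a median log2 fold change of 0.04. Groups did not overlap for 2 segments higher in P2KO, Igkv4-70 and Ighv8-12 (background 0.859%), and 2 lower, Igkv3-2 and Igkv5-43 (background 1.39%), so this share of the members was close to that of all genes. Igkv3-2, a kappa segment, was at 3.04, 5.91, 13.8 and 5.12 CPM in P2WT libraries 3, 4, 7 and 10 and at 1.99, 2.28, 2.13 and 1.38 CPM in P2KO libraries 1, 5, 6 and 9. All P2KO values lay below all P2WT values, and P2WT 7 was far above the other controls. Its log2 fold change was -1.82 (SE 0.43, edgeR adjusted p = 0.967), and DESeq2 gave an adjusted p of 0.00873. Igkv4-70 was at 0.188, 0.202, 0.0395 and 0.324 CPM in P2WT and at 1.18, 0.656, 1.70 and 0.461 in P2KO (log2 fold change 2.37, SE 0.56, adjusted p = 0.967). Ighv9-4 had a log2 fold change of 4.04 (SE 1.31), which was 1.69 without P2KO 5.

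Between P2H2KO and P2H2WT, 0 of 141 tested V segments were called by edgeR (42 were not tested), against 0.0744% of all 13435 genes, and DESeq2 called 2. An unadjusted p under 0.05 was reached by 18 segments (12.8%), against 2.63% of all genes. Fitted levels were higher in P2H2KO for 59 segments and lower for 82, with a median log2 fold change of -0.26 against 0.00 for all genes. No segment was higher in P2H2KO without overlap (background 0.901%), and 4 were lower (background 0.811%): Igkv17-127, Iglv3, Ighv1-69 and Igkv12-41. Igkv17-127 was at 12.2, 6.18, 3.87 and 4.12 CPM in P2H2WT libraries 13, 14, 16 and 18 and at 0.865, 2.58, 1.62 and 1.58 CPM in P2H2KO libraries 11, 12, 15 and 17. The groups did not overlap, and P2H2WT 13 was the highest. Its log2 fold change was -1.99 (SE 0.44, edgeR adjusted p = 0.537), and DESeq2 gave an adjusted p of 0.00251. Igkv17-127 is 97.5% identical to Igkv17-121, so its count may include reads of that segment. Iglv3 was at 4.22, 1.75, 2.17 and 4.20 CPM in P2H2WT and at 1.21, 1.13, 1.26 and 1.62 CPM in P2H2KO (log2 fold change -1.24, SE 0.31, adjusted p = 0.812).

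Igkv1-122 had a higher fitted level in P2H2KO, with 1 control inside the range of that group. It was at 0.286, 1.43, 0.193 and 0.323 CPM in P2H2WT and at 4.98, 4.88, 3.02 and 1.08 CPM in P2H2KO, and P2H2WT 14 exceeded P2H2KO 17. The log2 fold change was 2.65 (SE 0.66, edgeR adjusted p = 0.779; DESeq2 adjusted p = 0.0175). The B-1a pair had higher means in P2H2KO. Igkv14-126 was at 8.52, 7.93, 16.8 and 8.16 CPM in P2H2WT and at 32.8, 12.7, 20.7 and 26.0 CPM in P2H2KO, with P2H2WT 16 above P2H2KO 12 (log2 fold change 1.15, SE 0.33, edgeR adjusted p = 0.9999). Ighv11-2 was at 3.04, 4.78, 5.77 and 1.82 CPM in P2H2WT and at 12.1, 7.09, 5.53 and 9.43 CPM in P2H2KO, with P2H2WT 16 above P2H2KO 15 (log2 fold change 1.14, SE 0.36, edgeR adjusted p = 0.9999). In the P2 line Igkv14-126 was at 16.7 ± 2.72 CPM in P2WT and 17.9 ± 8.61 in P2KO (SD, n = 4 each), with a log2 fold change of 0.11 (SE 0.36) and overlapping groups. The difference of the 2 genotype effects was called for 0 of 158 tested V segments and for 0 of 14080 genes (0.0%) by edgeR, and for 0 genes by DESeq2. An unadjusted p under 0.05 was reached by 18 segments (11.4%) and 1.51% of all genes.

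Between the wild-type groups 2 of 134 tested segments were called, against 1.22% of 13593 genes, so the share of segments was close to the background. Both were heavy chain segments lower in P2WT. Ighv1-85 (chromosome 12, 116000028 to 116000461) was at 0.714, 0.566, 0.435 and 0.360 CPM in P2WT libraries 3, 4, 7 and 10 and at 5.05, 3.71, 1.04 and 2.505 CPM in P2H2WT libraries 13, 14, 16 and 18. The groups did not overlap (log2 fold change -2.57, SE 0.46, edgeR adjusted p = 0.0299). Ighv1-42 (chromosome 12, 114937113 to 114937544) was at 0.601, 0.445, 1.07 and 1.73 CPM in P2WT and at 13.9, 5.58, 2.21 and 7.63 CPM in P2H2WT, again without overlap (log2 fold change -2.92, SE 0.57, edgeR adjusted p = 0.0427). Both calls depended on single libraries and on the settings of the fit. Of 14 alternatives, 7 lost the call of Ighv1-85 and 10 that of Ighv1-42. With the m or f suffix as a covariate, 1 segment was called in place of 2. Ighv1-85 lost its call without any 1 of P2WT 3, 4, 7 and 10 or P2H2WT 13 and 14, and Ighv1-42 without any 1 of those or P2H2WT 18. Over all alternatives the adjusted p of Ighv1-85 ran from 6.98e-06 to 0.107 and that of Ighv1-42 from 0.000811 to 0.263, and 0 to 7 segments were called with 1 library left out (7 without P2H2WT 16). Groups did not overlap for 1 segment higher in P2WT, Ighv1-81 (background 5.18%), and 5 lower (background 2.63%). Fitted levels were lower in P2WT for 97 of the 134 segments, with a median log2 fold change of -0.58 against -0.01 for all genes. An unadjusted p under 0.05 was reached by 36 segments (26.9%), against 11.4% of all genes. Jchain (edgeR adjusted p = 0.0811, log2 fold change -0.85, SE 0.20) and Igha (adjusted p = 0.266, log2 fold change -1.001, SE 0.34) also had lower fitted levels in P2WT.

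Heavy chain usage overlapped least between the lines. Usage overlap, the summed smaller share of each segment in 2 libraries, had a median of 66.3% for Ighv over the 24 pairs within a group, 65.9% over the 32 pairs across genotypes of a line and 61.6% over the 64 pairs between lines. For Igkv the medians were 64.4%, 61.8% and 61.1%. For Ighv the ranges were 57.7 to 75.1%, 62.2 to 69.5% and 54.7 to 67.3%. The Ighv median between lines lay below the lowest pair across genotypes of a line but above the lowest pair within a group. For Igkv the ranges were 54.97 to 68.8%, 49.8 to 68.9% and 50.2 to 69.1%. Pairs share libraries, and these differences were not tested. By distance from the J segments, Ighv segments within 500 kb held 18.6% of pooled Ighv counts and those at 500 to 1000 kb 22.2%. Those at 1000 to 1500 kb held 25.1% and those beyond 34.1%. In the same order these stretches held 18, 19, 21 and 35 members, so the rise in share goes with the number of members. It does not show that single segments far from J were used more. All 4 stretches were used in every library, the nearest at 13.4 to 21.9%. Of the kappa families, Igkv14 (3 members) ran from 3.24% in P2H2WT 13 to 18.1% in P2H2KO 17, the library in which Igkv14-126 led at 14.3%.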

How the data were processed

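RNA was measured in 16 libraries of sorted bone neutrophils, 4 per group, grouped by title and description. The authors deposited 2 tables of raw read counts per gene, 8 libraries each, per the file headers; HTSeq and the build mm10 are named in the submitters' processing notes, and the aligner and use of strand are not given in the sources used here. Symbols, coordinates and transcripts came from GENCODE M21; 259 of 49585 identifiers had no symbol and held 0.00714% of counts. Nearest copies were found with blastn 2.17.0.

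Genes were filtered with filterByExpr, scaled with TMM and tested with the quasi-likelihood F test (robust) of edgeR 4.0.16 in R 4.3.3, two-sided. P-values were adjusted over every gene in the fit (Benjamini-Hochberg), with a threshold of 0.05. CPM were computed here from the deposited counts. Shares, effective numbers and exact intervals used raw counts (scipy 1.17.1), and correlations 100000 permutations over 16 libraries and all pairings over 8. The fit was tested on simulated data.

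Members and lists were chosen with earlier results of these data known. Named were each library's leading segments, the most counted (5 Ighv, 5 Igkv, 3 Iglv), expanded and called segments, those at the limit of 50 counts, list genes and up to 5 segments with the smallest p per genotype comparison, from which the most marked are described. Alternatives were RLE and upper-quartile scaling, other filters, DESeq2 1.42.0, the m or f suffix of the title as a covariate, each library left out, and other member limits, length scaling, families added together and other expansion rules. Leaving out P2KO 1, 5 and 6 was chosen after seeing the data.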

Additional observations from a re-analysis of the deposited data

Results flagged for a closer look

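The 49 measures included the total V segment level, the top share and effective number of Ighv and of Igkv segments, and the lambda share. The levels of the named segments and of Ighg1, Ighg2b, Ighg2c, Ighg3 and Igha were also among them. For each measure in each of the 4 groups, 1 library was compared with the other 3 of its group. In 12 of the 196 groups its gap to the nearest of the others was a larger part of the whole range than Dixon's 95% critical value allows. Chance does so in about 1 in 20 groups of measures chosen without regard to their values. That rate does not apply to segments named because they were expanded in a library or had a small p, such as Ighv9-4 and Igkv3-1. All values printed below are CPM. The total V segment level of P2WT 3 was 481, against 414 to 420 in the other P2WT libraries.

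Among heavy chain segments, Ighv9-4 was at 13.5 in P2KO 5 against 0.184 to 1.62 in the other P2KO libraries, and Ighv1-85 at 2.04 in the same library against 0.405 to 0.614. Ighv10-1 was low in P2WT 7, at 0.672 against 1.58 to 1.73.

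Among kappa segments, Igkv14-126 was at 16.8 in P2H2WT 16 against 7.93 to 8.52, Igkv1-122 at 1.43 in P2H2WT 14 against 0.193 to 0.323, and Igkv3-1 at 1.97 in P2H2KO 12 against 0.0718 to 0.271. P2WT 4 stood above its group for Igkv4-57-1 (1.25 against 0.150 to 0.324) and Igkv6-15 (6.31 against 3.38 to 3.75).

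Among lambda segments, Iglv2 was at 6.69 in P2H2KO 12 against 1.58 to 2.42, and Iglv3 at 2.97 in P2WT 3 against 0.830 to 1.01 and at 2.92 in P2KO 9 against 1.10 to 1.38. No segment moved in opposite directions without overlap in the 2 lines.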

How the results depend on the processing

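No paired analysis was possible because no replicate number is shared between groups. With DESeq2 the genes called rose from 6 to 23 for P2KO against P2WT, from 10 to 42 for P2H2KO against P2H2WT and from 166 to 419 between wild types, and the V segments called from 0 to 1, 0 to 2 and 2 to 10; the cause was not tested. Segments called between wild types fell to 1 with no filter, with a minimum of 10 counts and with the suffix covariate. With 1 library left out, 4 to 6, 6 to 9 and 76 to 167 genes were called in these 3 comparisons and 0 to 7 segments between wild types, 7 of them without P2H2WT 16 and 0 without P2WT 3, P2WT 7 or P2WT 10. With families added together, the median top share was 49.6% for Ighv and 18.9% for Igkv, the effective numbers 3.62 and 9.45, and libraries with an expanded family 0 in both classes, by construction larger units. Libraries with an expanded Ighv segment numbered 1 at 10 times the median, 0 at 10% of the class and 2 to 4 with 1 library left out (2 without P2KO 5 or P2H2WT 13). For Igkv they numbered 3, 1 and 5 to 7, and 4 without P2KO 1, 5 and 6 (3 for Ighv). The medians of top share (7.60 to 7.67% and 8.40 to 8.80%), effective number (34.5 to 35.6 for Ighv and 30.97 to 31.03 for Igkv), V level (423 to 465 CPM) and kappa share (86.8 to 88.1%) moved little with 1 library left out. Member limits of 10 or 200 counts, length scaling and leaving out pseudogenes changed no median of top share or effective number by more than the spread between libraries. Of these settings, only the limit of 10 counts was run for the V level and kappa share, and it also moved them by less than that spread. Depth limits single segments: 48 and 42 members were too low to test in the 2 genotype comparisons.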

Other observations

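In P2H2WT 14, the heavy chain segment Ighv1-31 had 186 of its 292 counts and the kappa segment Igkv4-63 had 492 of its 907. These segments were picked after their values were seen, and no relation between them was tested.

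Under the limit of 50 counts, Ighv8-4 had 23 counts in P2WT 3 and 22 in P2KO 9, of 47 in all, and Igkv4-62 had 39 of its 46 counts in P2H2KO 15.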
